A study of Mus musculus with 6 samples.

Results

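Transcripts of 10 skeletal muscle genes were followed in the fetal thymic stroma. The genes were *Chrna1*, *Myod1*, *Myog*, *Des*, *Ckm*, *Actc1*, *Acta1*, *Tnnt3*, *Mylpf* and *Myh3*. They were chosen by symbol, and each was found once among the 22513 gene entries. RNA-seq had been carried out on 6 libraries from cultured thymic lobes of C57BL/6 embryos taken at E15.5. All lobes, controls included, had been treated with 2′-deoxyguanosine (2-DG) for 4 days, which depletes haematopoietic cells and leaves a mixed stroma. Wild-type (WT) stroma gave 1 unstimulated library and 2 libraries after stimulation with RANKL, the ligand of the receptor RANK, and *Jmjd6*-/- stroma gave the same numbers. The *Jmjd6* mutation is not limited to the epithelium, so every stromal cell type carries it.

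A medullary thymic epithelial cell (mTEC) transcribes genes that otherwise belong to single peripheral tissues, many of them under control of the nuclear protein Aire, and so displays their products to developing T-cells. Skeletal muscle supplies well-known examples, because antibodies against the muscle acetylcholine receptor cause myasthenia gravis and the thymus is affected in that disease. In muscle itself, MyoD and myogenin are basic helix-loop-helix factors that bind E-boxes and switch on the genes of the contractile apparatus, and the receptor sits at the junction where the motor nerve meets the fibre. The thymus also holds rare myoid cells, which are muscle-like and are not epithelial. In whole stroma, fewer cells of a type and less RNA per cell cannot be told apart.

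The bases just upstream of the transcription start are shown for 4 of the genes, because these windows hold CAGCTG, a form of the E-box that MyoD and myogenin bind. Sequences are from RefSeq, build GRCm38.p6, run 5′ to 3′ on the strand of the gene over the 250 bases before the start, and have CAGCTG in capitals.
*Chrna1*, chr2:73580339-73580588, minus strand: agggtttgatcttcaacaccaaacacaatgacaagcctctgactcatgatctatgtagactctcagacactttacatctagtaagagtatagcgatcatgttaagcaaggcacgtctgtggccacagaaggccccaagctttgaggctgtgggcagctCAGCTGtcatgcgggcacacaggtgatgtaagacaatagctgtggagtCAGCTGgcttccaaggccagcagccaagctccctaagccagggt
*Des*, chr1:75360042-75360291, plus strand: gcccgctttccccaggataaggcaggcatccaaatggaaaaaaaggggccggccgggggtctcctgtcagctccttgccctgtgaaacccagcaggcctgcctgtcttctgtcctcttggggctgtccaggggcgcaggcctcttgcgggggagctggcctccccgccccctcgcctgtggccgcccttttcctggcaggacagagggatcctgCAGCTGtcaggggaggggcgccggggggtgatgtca
*Mylpf*, chr7:127211358-127211607, plus strand: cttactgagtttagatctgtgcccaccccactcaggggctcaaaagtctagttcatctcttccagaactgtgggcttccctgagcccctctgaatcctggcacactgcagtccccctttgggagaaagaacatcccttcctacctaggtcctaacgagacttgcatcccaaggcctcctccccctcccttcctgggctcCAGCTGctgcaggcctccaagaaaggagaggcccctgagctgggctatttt
*Acta1*, chr8:123894776-123895025, minus strand: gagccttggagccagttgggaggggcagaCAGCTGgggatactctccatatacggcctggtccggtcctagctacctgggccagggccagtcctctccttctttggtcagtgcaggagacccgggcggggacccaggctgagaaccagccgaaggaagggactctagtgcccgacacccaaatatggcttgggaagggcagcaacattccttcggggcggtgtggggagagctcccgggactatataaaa

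RefSeq windows were matched for 8 of the 10 genes, all but *Myod1* and *Tnnt3*. CAGCTG, which reads the same on both strands, lay in 5 of the 8, the 4 shown and *Ckm*, and in 13% of 32851 promoter windows of the same length. In *Chrna1* it occurred at 92 and at 44 bases before the start, and 1.26% of all windows held 2 or more copies. The single copy began 36 bases before the start in *Des*, 51 in *Mylpf*, 221 in *Acta1* and 249 in *Ckm*. The general E-box CANNTG, which includes CAGCTG, was in 7 of the 8 windows and in 66.2% of all windows. The CArG box, the element bound by serum response factor, was in the windows of both sarcomeric actins, *Actc1* and *Acta1*, and in 1.47% of all windows. These are matches of letters and not sites of binding.

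The libraries carried the labels' groups. *Jmjd6* was 25.9 to 32.5 FPKM in WT and 1.32 to 1.96 FPKM in *Jmjd6*-/- libraries, where FPKM is the number of fragments scaled by transcript length and by the mapped fragments of the library. *Aire* was at most 0.473 FPKM without RANKL and 67.1 to 79.7 FPKM with it. The epithelial keratin gene *Krt5* was between 1006 and 1977 FPKM in all 6 libraries. A single fragment gives a gene its smallest possible FPKM, and from such steps the depth was put at 16100000 to 31300000 fragments per library. The 2 WT RANKL libraries differed from each other more than the 2 *Jmjd6*-/- RANKL libraries, with a median absolute difference of 0.28 against 0.08 on the log2 scale over 12587 genes. The labels call the repeated libraries technical duplicates and do not say that they are separate cultures, so p-values measure only the spread between these samples. *Ddx3y*, a gene of the Y chromosome, was nevertheless at 23.9 and 5.41 FPKM in the 2 *Jmjd6*-/- RANKL libraries and at 0.0237 FPKM in the unstimulated *Jmjd6*-/- library.

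The muscle genes were rare transcripts. Of the 10 genes, 9 had a mean under 1 FPKM over the 6 libraries, the exception being *Mylpf*. The other 9 together accounted for an estimated 40 fragments in unstimulated WT stroma, 108 and 82 in WT stroma with RANKL, 14 in unstimulated *Jmjd6*-/- stroma, and 12 and 14 in *Jmjd6*-/- stroma with RANKL. As a share of the library, in parts per 1000000 fragments, this was 1.28 in unstimulated WT, 3.79 and 4.94 in WT with RANKL, 0.870 in unstimulated *Jmjd6*-/-, and 0.446 and 0.704 in *Jmjd6*-/- with RANKL. The WT RANKL libraries were thus the highest, and the 3 *Jmjd6*-/- libraries were below the 3 WT libraries. Each WT library had 9 of the 10 genes above 0, and the *Jmjd6*-/- libraries had 4, 6 and 7. Over all gene entries, 76.0 to 81.0% were above 0 in the WT libraries and 73.1 to 77.7% in the *Jmjd6*-/- libraries.

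**Figure D1:**
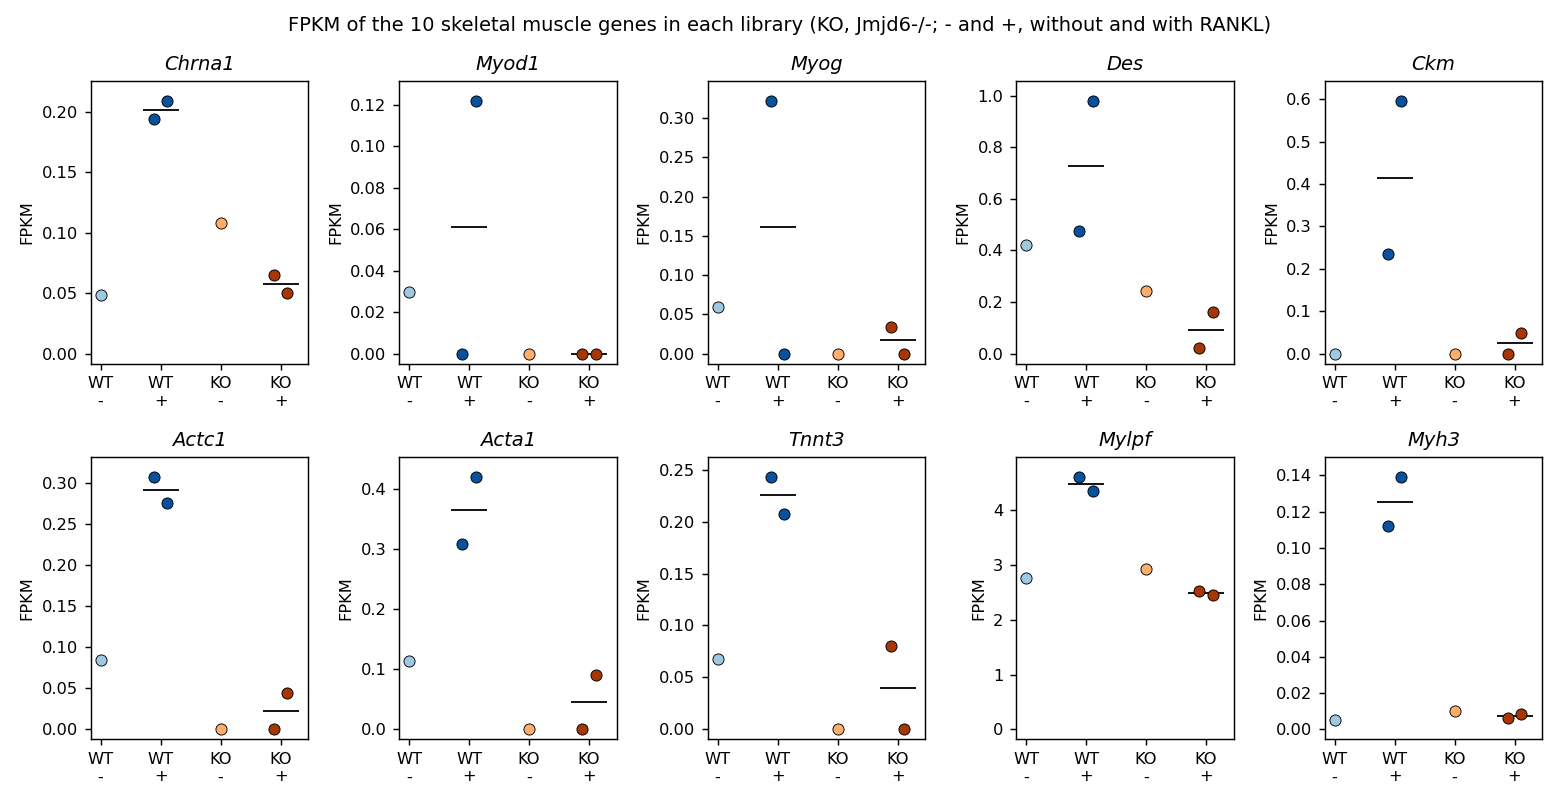
FPKM of each of the 10 genes on its own linear axis, with 1 point per library (WT in blue, *Jmjd6*-/- in orange, pale without and dark with RANKL) and a bar at the mean of the 2 RANKL libraries. Both WT RANKL points lie above both *Jmjd6*-/- RANKL points in 8 of the 10 panels, and *Myod1* and *Myog* are the exceptions.

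*Chrna1* encodes the α-subunit of the muscle nicotinic acetylcholine receptor, which carries the binding site for acetylcholine. Its level was 0.0481 FPKM in unstimulated WT, 0.194 and 0.209 FPKM in WT with RANKL, 0.108 FPKM in unstimulated *Jmjd6*-/-, and 0.0651 and 0.0501 FPKM in *Jmjd6*-/- with RANKL. The 2 WT RANKL libraries stood above the other 4, and among those 4 the unstimulated *Jmjd6*-/- library was the highest. The means under RANKL were 0.202 ± 0.0102 FPKM in WT and 0.0576 ± 0.0106 FPKM in *Jmjd6*-/- (SD, n = 2 each). These values rest on an estimated 22 and 14 fragments in WT against 7 and 4 in *Jmjd6*-/-, a ratio at equal depth of 3.40 with an exact 95% interval of 1.69 to 7.40. Such intervals cover counting error only. On the log2 scale with 0.1 FPKM added, which understates changes of low genes, the genotype difference under RANKL was -0.94 (SE 0.33), and its adjusted p of 0.216 by limma missed the threshold of 0.05. In WT, RANKL libraries against the unstimulated one gave a ratio of 4.17 with an interval of 1.74 to 12.1. The entry covers chr2:73563281-73580338 on the minus strand (mm10), and no other annotated gene lies within it.

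The myogenic regulators themselves were at the limit of detection. *Myod1* (chr7:46376474-46379092) had an estimated 1 fragment in unstimulated WT, 2 in WT RANKL replicate 2 and 0 in the other 4 libraries, which allows up to 3 fragments in each of those. *Myog*, which encodes myogenin (chr1:134290004-134292548), was at 0.321 FPKM in WT RANKL replicate 1, an estimated 10 fragments, and at 0 in WT RANKL replicate 2. Beyond these, *Myog* had 2 fragments in unstimulated WT and 1 in *Jmjd6*-/- RANKL replicate 1. Neither gene separated the genotypes, since for both genes a WT RANKL library stood at 0. Both were below the filter of a mean of 0.1 FPKM and were not tested.

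*Des* encodes desmin, the intermediate filament of muscle, which smooth muscle and some mesenchymal cells also make. Its level was 0.422 FPKM in unstimulated WT, 0.476 and 0.979 FPKM in WT with RANKL, 0.242 FPKM in unstimulated *Jmjd6*-/-, and 0.0232 and 0.160 FPKM in *Jmjd6*-/- with RANKL. Every WT library was above every *Jmjd6*-/- library, and WT RANKL replicate 2 was the highest. The means under RANKL were 0.727 ± 0.356 FPKM in WT and 0.0914 ± 0.0964 FPKM in *Jmjd6*-/- (SD, n = 2 each), from 48 and 6 fragments in all. The ratio at equal depth was 8.31 with an exact interval of 3.55 to 23.8. The log2 difference was -2.14 (SE 0.51), with an adjusted p of 0.10 by limma.

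*Ckm* encodes the muscle creatine kinase, which regenerates ATP from phosphocreatine. It was at 0 FPKM in both unstimulated libraries and in *Jmjd6*-/- RANKL replicate 1, at 0.235 and 0.595 FPKM in WT with RANKL, and at 0.0496 FPKM, a single fragment, in *Jmjd6*-/- RANKL replicate 2. It was therefore seen almost exclusively in the 2 WT RANKL libraries, with 7 and 10 fragments. Set against the limit of 3 fragments in the unstimulated WT library, WT with RANKL was 4.39 times as high. Taken instead as 17 fragments against 0, the ratio at equal depth had an exact lower limit of 2.87 and no upper limit. The ratio of WT to *Jmjd6*-/- under RANKL was 17.7 with an exact interval of 2.77 to 738. Its log2 difference was -1.98 (SE 0.49) with an adjusted p of 0.110 by limma. With 1 RANKL library left out, the adjusted p was 0.0385 without WT RANKL replicate 1 (log2 difference -2.51), 0.105 without WT RANKL replicate 2, 0.342 without *Jmjd6*-/- RANKL replicate 1 and 0.168 without replicate 2. In such fits the lone library is assumed to vary like the other groups. The antisense gene A930016O22Rik overlaps *Ckm*, and reads of the 2 strands may not have been told apart.

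The 2 sarcomeric actins ordered the libraries by genotype in the same way. *Actc1*, the α-actin of heart and of developing skeletal muscle, was at 0.0844 FPKM in unstimulated WT, at 0.308 and 0.276 FPKM in WT with RANKL, and at 0, 0 and 0.0443 FPKM in the unstimulated and the 2 RANKL-treated *Jmjd6*-/- libraries. *Acta1*, the α-actin of adult skeletal muscle, was at 0.114 FPKM in unstimulated WT, at 0.309 and 0.421 FPKM in WT with RANKL, and at 0, 0 and 0.0911 FPKM in the *Jmjd6*-/- libraries in the same order. For *Actc1* every WT library was above every *Jmjd6*-/- library, and so it was for *Acta1*. Without RANKL this order is not resolved, since unstimulated WT held only an estimated 3 and 4 fragments. The value of 0 in unstimulated *Jmjd6*-/- allows up to 3 fragments, which would be 0.164 FPKM for *Actc1* and 0.169 FPKM for *Acta1*. Under RANKL, *Actc1* had 15 fragments in WT and 1 in *Jmjd6*-/-, a ratio at equal depth of 15.6 (exact interval 2.40 to 656), and *Acta1* had 18 and 2, a ratio of 9.34 (2.24 to 83.0). The log2 differences under RANKL were -1.70 (SE 0.37) for *Actc1* and -1.74 (SE 0.44) for *Acta1*, with adjusted p-values of 0.0824 and 0.116 by limma. Over both conditions, with RANKL as a term, the adjusted p-values were 0.0726 and 0.0736. The 2 coding sequences are much alike, so fragments may have been shared between them, and each gene overlaps another gene on the opposite strand, A530058N18Rik for *Actc1* and Gm20388 for *Acta1*.

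Troponin T and the myosins complete the contractile set. *Tnnt3*, the tropomyosin-binding troponin subunit of fast fibres, was at 0.0677 FPKM in unstimulated WT, 0.243 and 0.208 FPKM in WT with RANKL, 0 in unstimulated *Jmjd6*-/-, and 0.0802 and 0 FPKM in *Jmjd6*-/- with RANKL. Both WT RANKL libraries were the highest, but they held only 7 and 3 fragments, and the ratio to *Jmjd6*-/- of 5.19 had an exact interval from 1.11 to 48.7. The entry of *Tnnt3* spans *Lsp1* and *Prr33* as well, and its mean of 0.0998 FPKM fell just under the filter. *Myh3*, the embryonic myosin heavy chain, was at 0.00511 FPKM in unstimulated WT, 0.112 and 0.139 FPKM in WT with RANKL, 0.0103 FPKM in unstimulated *Jmjd6*-/-, and 0.00604 and 0.00828 FPKM in *Jmjd6*-/- with RANKL. In fragments this was 20 and 14 in the WT RANKL libraries and 1 in each of the other 4. The ratio of WT with RANKL to unstimulated WT was 23.6 (exact interval 3.96 to 960), and that of WT to *Jmjd6*-/- under RANKL was 17.7 (4.52 to 152). *Myh3* was below the filter and was not tested.

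*Mylpf*, the phosphorylatable regulatory light chain of fast myosin, was the most abundant of the 10. It was at 2.77 FPKM in unstimulated WT, 4.61 and 4.36 FPKM in WT with RANKL, 2.93 FPKM in unstimulated *Jmjd6*-/-, and 2.52 and 2.45 FPKM in *Jmjd6*-/- with RANKL. The unstimulated libraries of both genotypes lay close together, both WT RANKL libraries were above them and both *Jmjd6*-/- RANKL libraries slightly below. The means under RANKL were 4.48 ± 0.180 and 2.49 ± 0.0455 FPKM (SD, n = 2 each), a ratio at equal depth of 1.80 (exact interval 1.33 to 2.44). The log2 difference was -0.83 (SE 0.17) with an adjusted p of 0.0776 by limma. The adjusted p was 0.0373 without WT RANKL replicate 1 (log2 difference -0.79), 0.0575 without WT RANKL replicate 2, 0.606 without *Jmjd6*-/- RANKL replicate 1 and 0.701 without replicate 2.

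Within WT stroma with RANKL, the levels per length ran from *Mylpf* through *Des*, *Ckm*, *Acta1*, *Actc1*, *Tnnt3*, *Chrna1*, *Myog* and *Myh3* to *Myod1*. *Mylpf* was 6.17 times as high as *Des* in the mean, with no overlap between libraries. *Des* and *Ckm* overlapped, as did *Ckm* and *Acta1*, *Tnnt3* and *Chrna1*, and all later neighbours in the order. *Acta1* and *Actc1* were separated by 0.0018 FPKM at their nearest libraries.

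Across the 10 genes, the WT RANKL libraries were mostly the higher pair, and no single gene passed the test after adjustment. Both *Jmjd6*-/- RANKL libraries were below both WT RANKL libraries in 8 of the 10 genes, against 26.5% of 19264 entries above 0 in any library and 36.2% of the 6677 such entries with a mean under 1 FPKM. The reverse order was found for 0 of the 10 genes, and for 21.4% and 11.0% of those entries. The 10 genes were chosen with earlier results of these data known, so setting their counts beside these shares is not a test. All 3 *Jmjd6*-/- libraries were below all 3 WT libraries in 3 of the 10, *Des*, *Actc1* and *Acta1*, against 8.44% of entries. For *Actc1* and *Acta1* the order without RANKL rests on an estimated 3 and 4 fragments in WT against 0 and is not resolved. The median difference over the 10 genes was -1.17 on the log2 scale, with a range from -2.14 to -0.57, and the median over entries with a mean under 1 FPKM was -0.24. Of the 10 genes, 6 passed the filter and 0 had an adjusted p under 0.05 by limma in any of the 4 comparisons. For genotype under RANKL, 1.82% of the 15894 genes tested were called lower and 0.516% higher. Over both conditions, 3.38% were called lower and 2.05% higher. At an unadjusted p under 0.05, 6 of the 6 genes were lower in *Jmjd6*-/- under RANKL and 5 over both conditions, beside 12.3% and 12.8% of all genes tested that were lower at that level. Of the 6 genes, 4 averaged under 0.1 FPKM outside the WT RANKL libraries and so passed the filter through the group where they were high, and these counts therefore carry no weight.

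The response to RANKL was then compared between the genotypes. In WT, both RANKL libraries were above the unstimulated library in 8 of the 10 genes (35.3% of all entries, 48.4% of those with a mean under 1 FPKM). In *Jmjd6*-/-, this was so for 0 of the 10 (37.0% and 31.7%). For *Myod1*, *Myog*, *Ckm*, *Actc1*, *Acta1* and *Tnnt3*, the unstimulated *Jmjd6*-/- library and at least 1 *Jmjd6*-/- RANKL library were at 0. Such a tie fails this order, so the count of 0 does not show an absent response. The median difference was 0.99 in WT and 0.11 in *Jmjd6*-/- on the log2 scale, beside 0.30 and 0.01 over entries with a mean under 1 FPKM. Not all WT rises were resolved by counting. The exact interval of the ratio of WT with RANKL to unstimulated WT included 1 for *Des* (0.933 to 2.79), *Actc1* (0.983 to 18.7) and *Tnnt3* (0.740 to 32.6). For the others of the 8 it lay above 1, and for *Acta1* it began at 1.03. For *Chrna1*, *Des* and *Mylpf*, the RANKL libraries lay on opposite sides of the unstimulated library in the 2 genotypes. The values of *Myh3* did so too, but with 1 fragment in each *Jmjd6*-/- library a move within that genotype cannot be resolved. Within *Jmjd6*-/- the differences of *Chrna1*, *Des* and *Mylpf* were -0.40, -0.93 and -0.23 on the log2 scale. They were taken against 1 unstimulated library with an estimated 7, 6 and 29 fragments, so these falls are not resolved either. The interaction was -1.43 (SE 0.57, unadjusted p = 0.0504) for *Chrna1* and -0.90 (SE 0.30, unadjusted p = 0.0269) for *Mylpf*, both with an adjusted p of 1 by limma, and 0 genes of the whole table passed for the interaction, with 4.18% at an unadjusted p under 0.05. Taken over both genotypes, the RANKL effect was 0.31 for *Chrna1* and 0.22 for *Mylpf* and had an adjusted p of at least 0.192 for each of the 6 genes tested, while 10.5% of all genes rose and 4.11% fell. Without the unstimulated WT library, the 2 values turned to -0.40 and -0.23. Each unstimulated group is 1 library, which is assumed to vary like the RANKL replicates.

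**Figure D2:**
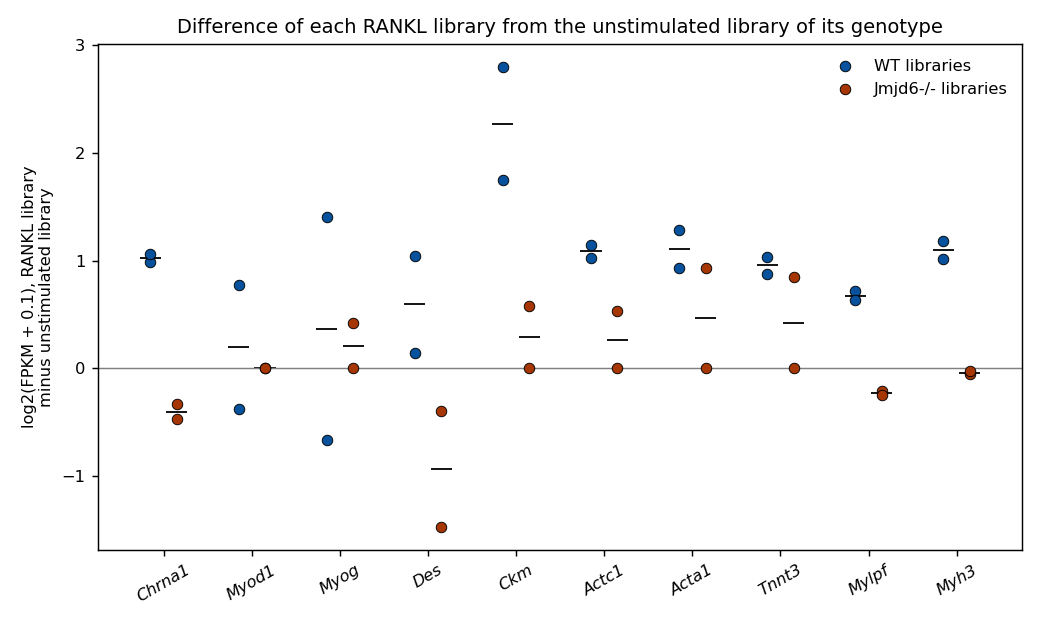
Difference of each RANKL library from the unstimulated library of its own genotype, in log2(FPKM + 0.1), for the 10 genes, with 1 point per library (WT blue, *Jmjd6*-/- brown) and a bar at the mean of the pair. Both blue points lie above 0 for all genes but *Myod1* and *Myog*, and for no gene do both brown points. Where the unstimulated library and a RANKL library were both at 0 FPKM, the point lies on 0 and does not count as above.

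Other genes of skeletal muscle were examined in 4 lists of 65 genes, with 40 tested. Both *Jmjd6*-/- RANKL libraries were below both WT RANKL libraries in 27 of the 65 and above them in 6, beside 36.2% and 11.0% of all entries with a mean under 1 FPKM. Both WT RANKL libraries were above the unstimulated one in 39, beside 48.4% of such entries. With RANKL, 5 genes rose and 1 fell, beside 10.5% and 4.11% of all genes tested, and under RANKL 1 was higher and 0 were lower in *Jmjd6*-/-. For each list below, the shares to read beside its counts of genes below and above are the same 36.2% and 11.0%. Over all entries above 0 they were 26.5% and 21.4%. No count of the wider lists was tested against that of the 10 genes or against these shares.

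Of 10 further myogenic regulators 5 were tested and 0 were called in any of the 4 comparisons by limma, and their median genotype difference under RANKL was -0.02. *Msc* was at 24.9 to 33.0 FPKM and *Six4* at 8.37 to 13.1 FPKM. The myogenic factor gene *Myf6* was at 0 without RANKL in both genotypes and at 0.0349 and 0.0620 FPKM in WT and 0.186 and 0.152 FPKM in *Jmjd6*-/- with it. *Tmem8c*, which encodes the fusion protein myomaker, was at 0 FPKM in both unstimulated libraries, 0.431 and 0.339 FPKM in WT with RANKL, and 0.0381 and 0.0551 FPKM in *Jmjd6*-/- with RANKL. The WT RANKL pair was on top, as for *Chrna1* and *Myh3*. Unlike in those genes, both *Jmjd6*-/- RANKL values were above that of the unstimulated *Jmjd6*-/- library. Fragments of *Tmem8c* were not estimated, and the unstimulated *Jmjd6*-/- library was the shallowest, at 16100000 fragments. Such a small difference from 0 may therefore not be resolved. For *Tmem8c* the log2 difference between the genotypes under RANKL of -1.72 (SE 0.34) had an adjusted p of 0.0706 by limma. *Myf6* and *Tmem8c* were picked with their values known.

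Among 25 genes of the thick and thin filaments and the Z-disc, 12 had both *Jmjd6*-/- RANKL libraries below both WT RANKL libraries and 2 had them above, with a median of -0.41. With RANKL 4 rose over both genotypes by limma. *Actn3*, the α-actinin of fast fibres, rose by 1.14 (SE 0.11, adjusted p = 0.00105), from 16.6 to 34.3 and 41.4 FPKM in WT and from 13.1 to 29.8 and 26.9 FPKM in *Jmjd6*-/-. In both genotypes, each RANKL library was above the unstimulated one. *Tnnt2*, the cardiac and embryonic troponin T, rose by 2.27 (SE 0.27, adjusted p = 0.00254) and was at 1.70 and 3.12 FPKM in WT and 4.14 and 4.67 FPKM in *Jmjd6*-/- with RANKL, the opposite order from *Tnnt3*. *Tnni2* rose by 1.85 (adjusted p = 0.0400) and *Mybpc1* by 1.44 (adjusted p = 0.0228). Leaving out single libraries kept *Actn3* past the threshold each time. Without the unstimulated WT library *Tnnt2* (adjusted p = 0.0524), *Tnni2* (0.136) and *Mybpc1* (0.182) missed it. *Tnni2* and *Mybpc1* missed it as well without the unstimulated *Jmjd6*-/- library (0.290 and 0.0763), *Jmjd6*-/- RANKL replicate 1 (0.0905 and 0.0870) or replicate 2 (0.101 and 0.0808), and *Tnni2* without WT RANKL replicate 2 (0.0589). *Tpm2*, *Tnnc1* and *Myl4*, the next most abundant, reached 4.73, 2.85 and 1.60 FPKM, each in WT RANKL replicate 2, and were not called.

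The 19 genes of excitation-contraction coupling and energy supply had a median genotype difference of -0.24, with 6 genes below and 2 above. *Pgam2*, the muscle phosphoglycerate mutase of glycolysis, was at 4.52 FPKM in unstimulated WT, 2.35 and 2.65 FPKM in WT with RANKL, 7.32 FPKM in unstimulated *Jmjd6*-/-, and 6.53 and 7.44 FPKM in *Jmjd6*-/- with RANKL. It was higher in every *Jmjd6*-/- library than in any WT library, which is the reverse of *Des*, *Actc1* and *Acta1*. The log2 difference under RANKL was 1.45 (SE 0.17, adjusted p = 0.0282 by limma), and without *Jmjd6*-/- RANKL replicate 1 or 2 the adjusted p was 0.104 or 0.188. Over both conditions it was 1.19 (adjusted p = 0.0194), and without the same libraries the adjusted p was 0.118 or 0.113. *Jph1*, *Eno3* and *Srl*, the most abundant others at up to 25.9, 15.7 and 4.27 FPKM, were not called.

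**Figure D3:**
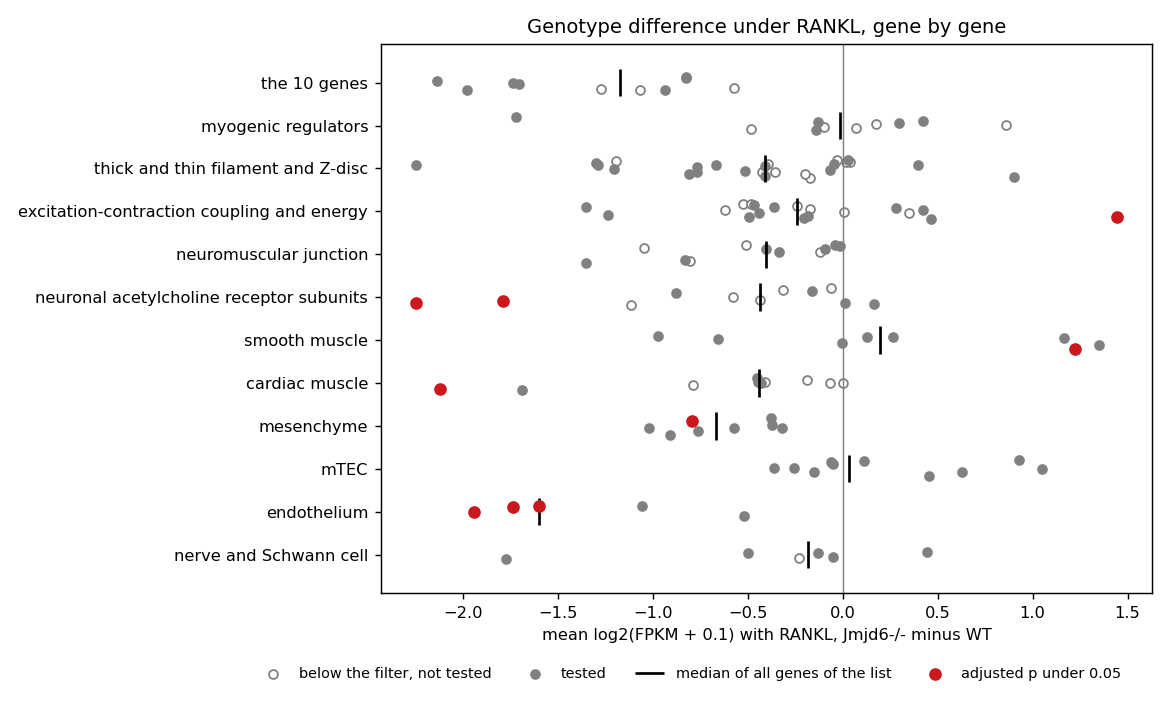
Difference between the genotypes under RANKL for the 10 genes and 11 other lists, as the mean log2(FPKM + 0.1) of the 2 *Jmjd6*-/- minus the 2 WT RANKL libraries, with 1 point per gene (open, below the filter and not tested; red, adjusted p under 0.05) and a bar at the median of all genes of the list. All 10 muscle genes lie left of 0 with a median of -1.17, and the only list with a lower median is endothelium at -1.60.

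The other subunits that assemble with the α-subunit were compared with *Chrna1*. *Chrng*, the γ-subunit of the fetal receptor, was at 0 FPKM in both unstimulated libraries, 0.138 and 0.294 FPKM in WT with RANKL, and 0.0576 and 0.0393 FPKM in *Jmjd6*-/- with RANKL. *Chrne*, the ε-subunit that replaces it in the adult receptor, was likewise at 0 without RANKL, at 0.121 and 0.161 FPKM in WT and at 0.0319 and 0.0432 FPKM in *Jmjd6*-/- with RANKL. *Chrnd*, the δ-subunit, was at 0.155 and 0.470 FPKM in WT and 0.0693 and 0.171 FPKM in *Jmjd6*-/- with RANKL, so the libraries overlapped. *Chrng* and *Chrne* had the WT RANKL pair on top like *Chrna1*, with the unstimulated *Jmjd6*-/- library, at 0, below the RANKL ones and not above them. Their fragments were not estimated, and that unstimulated library was the shallowest, at 16100000 fragments. The difference from 0 within *Jmjd6*-/- may therefore not be resolved for these 2 genes. Both were below the filter, and *Chrnd* had an adjusted p of 0.476. These 3 subunits were named after their values were seen. *Chrnb1*, the β-subunit, was more abundant at 2.04 to 4.03 FPKM and had a log2 difference of -0.02 (adjusted p = 0.975).

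Of the 11 genes of the neuromuscular junction, 6 had both *Jmjd6*-/- RANKL libraries below both WT ones and 0 had them above, with a median of -0.41. *Colq*, the collagen tail that anchors acetylcholinesterase at the synapse, was at 0.152 FPKM in unstimulated WT, 7.39 and 7.64 FPKM in WT with RANKL, 0.326 FPKM in unstimulated *Jmjd6*-/-, and 3.23 and 2.55 FPKM in *Jmjd6*-/- with RANKL. It rose with RANKL in both genotypes, by 3.86 (SE 0.44, adjusted p = 0.00236), and kept its call without any single library. Its genotype difference under RANKL was -1.36 (SE 0.22) with an adjusted p of 0.0506. *Ache*, acetylcholinesterase itself, was abundant at 245 to 361 FPKM and fell by 0.38 with RANKL (adjusted p = 0.0254), and *Agrn*, the nerve-derived organizer of receptor clusters, was lower in *Jmjd6*-/- over both conditions, at 39.1 to 47.1 FPKM against 57.7 to 65.8 FPKM in WT (log2 difference -0.46, adjusted p = 0.0330). Both calls were lost without either unstimulated library or either *Jmjd6*-/- RANKL library, with adjusted p-values of 0.110 to 0.336 for *Ache* and 0.147 to 0.195 for *Agrn*. Both were also lost without the mean-variance trend (0.0649 and 0.0836), and that of *Agrn* with libraries scaled to equal totals (0.0734). *Lrp4*, the agrin receptor, stayed between 8.22 and 10.3 FPKM.

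**Figure D4:**
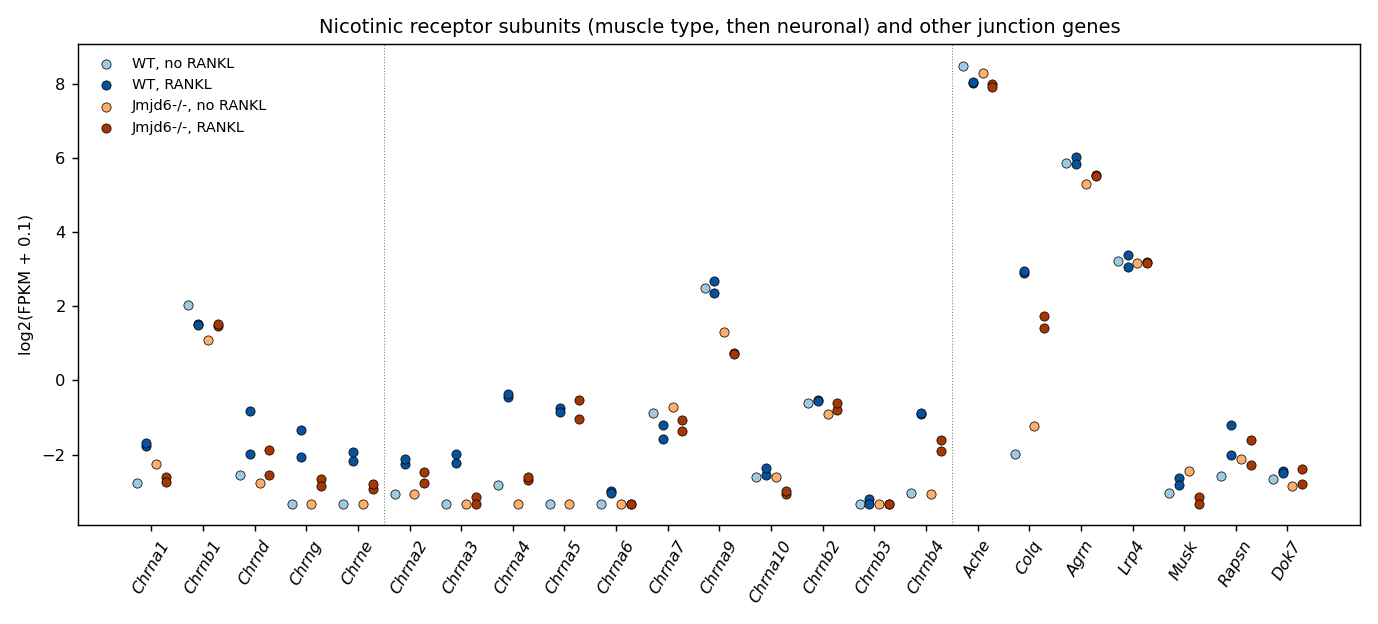
log2(FPKM + 0.1) of nicotinic receptor subunits and junction genes in each library, with 1 point per library coloured by genotype and stimulation and dotted lines between the muscle subunits, the neuronal subunits and the other junction genes. *Chrna1*, *Chrng* and *Chrne* are low, with the WT RANKL points on top, whereas *Ache* and *Agrn* are abundant in all 6 libraries.

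The 11 neuronal-type subunits, which form other nicotinic receptors, had 8 genes below and 0 above, with a median of -0.44. *Chrna9* was the most abundant, at 5.59 FPKM in unstimulated WT, 5.05 and 6.33 FPKM in WT with RANKL, 2.38 FPKM in unstimulated *Jmjd6*-/-, and 1.59 and 1.54 FPKM in *Jmjd6*-/- with RANKL. It was lower in *Jmjd6*-/- with and without RANKL, with a log2 difference of -1.79 under RANKL (SE 0.20, adjusted p = 0.0280) and -1.60 over both conditions (adjusted p = 0.00866). *Chrna4* was at 0.0403 FPKM in unstimulated WT, 0.637 and 0.681 FPKM in WT with RANKL, 0 in unstimulated *Jmjd6*-/-, and 0.0556 and 0.0636 FPKM in *Jmjd6*-/- with RANKL. The WT RANKL pair was far above the other 4 libraries, and the log2 difference under RANKL was -2.25 (SE 0.32, adjusted p = 0.0387). *Chrna5* rose with RANKL by 2.53 (adjusted p = 0.00255), from 0 to 0.386 to 0.590 FPKM in the 4 RANKL libraries with the genotypes overlapping, and *Chrnb4* by 1.73 (adjusted p = 0.0184). *Chrna5* kept its call without any single library. The calls under RANKL were lost without *Jmjd6*-/- RANKL replicate 1 or 2 for *Chrna9* (adjusted p = 0.0677 and 0.0921) and *Chrna4* (0.0973 and 0.108), and for *Chrna4* without WT RANKL replicate 2 (0.0518). The call of *Chrna9* over both conditions was lost without the same 2 *Jmjd6*-/- libraries (0.0570 and 0.0582), and that of *Chrnb4* without the unstimulated WT library (0.178) or *Jmjd6*-/- RANKL replicate 2 (0.0654). *Chrna7* and *Chrnb2*, the next most abundant, were at 0.235 to 0.597 FPKM and were not called.

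Genes whose pattern was most like that of *Chrna1* were sought over the 6 libraries among the 12587 genes that averaged 1 FPKM or more. By Pearson's r of log2(FPKM + 0.1) they were *Stat4* (r = 0.989), *Med24* (0.977), *Uxs1* (0.969), *Socs2* (0.968) and *Pthlh* (0.967). *Stat4* was at 2.97 FPKM in unstimulated WT, 6.07 and 5.68 FPKM in WT with RANKL, 3.97 FPKM in unstimulated *Jmjd6*-/-, and 3.04 and 2.72 FPKM in *Jmjd6*-/- with RANKL. The range of *Med24* was only 15.1 to 16.4 FPKM, since r ignores the size of the changes. Of the 10 genes, *Mylpf* (r = 0.954) and *Myh3* (0.940) were the closest to *Chrna1*, *Ckm* followed at 0.855, and *Myog* (0.357) was the farthest. *Aire* had an r of 0.384 and *Jmjd6* of 0.525. With 6 libraries, 46 genes had an r above 0.9, and the libraries share their groups, so these are descriptions.

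Markers of other cells that make some of these proteins were read in the same libraries. Of 8 smooth muscle genes, 2 had both *Jmjd6*-/- RANKL libraries below both WT ones and 3 had them above, with a median of 0.20. *Acta2*, the smooth muscle α-actin, was at 3.04 to 5.56 FPKM in WT and 9.84 to 11.5 FPKM in *Jmjd6*-/- libraries, and *Tagln*, transgelin, at 3.92 to 6.34 FPKM in WT and 10.2 FPKM or more in *Jmjd6*-/- libraries. They were higher in *Jmjd6*-/- over both conditions by 1.26 (adjusted p = 0.0281) and 1.07 (adjusted p = 0.0158), the opposite direction from *Acta1* and *Actc1*. *Tagln* was also called under RANKL (1.22, adjusted p = 0.0406), and *Synpo2* rose with RANKL by 1.35 (adjusted p = 0.00268). The entry of *Tagln* overlaps the coding genes *Bace1*, *Rnf214* and *Pcsk7* as well, so its values may not be those of *Tagln* alone. Both *Tagln* calls were lost without *Jmjd6*-/- RANKL replicate 1 (0.105 over both conditions, 0.205 under RANKL) or replicate 2 (0.0976 and 0.180), that of *Acta2* without these or either unstimulated library (0.0857 to 0.149), and that of *Synpo2* without the unstimulated WT library (0.0521). The most abundant others, *Myh11* and *Smtn*, were at up to 20.7 and 8.43 FPKM and were not called.

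Of 10 cardiac genes, 6 were below and 0 above, with a median of -0.44, and the cardiac factor *Nkx2-5* was at 0 in all 6 libraries. *Tnni3*, cardiac troponin I, was at 0.915 FPKM in unstimulated WT, 2.98 FPKM in both WT RANKL libraries, 1.48 FPKM in unstimulated *Jmjd6*-/-, and 0.752 and 0.486 FPKM in *Jmjd6*-/- with RANKL. Its log2 difference under RANKL was -2.12 (SE 0.27, adjusted p = 0.0316 by limma), with an adjusted p of 0.0590 without WT RANKL replicate 2 and 0.120 without *Jmjd6*-/- RANKL replicate 2. *Pln*, phospholamban, rose with RANKL by 2.52 (adjusted p = 0.00336) and kept its call without any single library. The entry of *Pln* overlaps the coding gene *Cep85l* as well, so its values may not be those of *Pln* alone. The sum of the 10 cardiac genes was 4.86 and 8.20 FPKM in WT with RANKL and 1.74 to 2.51 FPKM in the other 4 libraries.

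Markers of non-epithelial stroma differed between the genotypes too. Of 8 mesenchymal genes, 7 had both *Jmjd6*-/- RANKL libraries below both WT ones, beside 26.5% of all entries above 0 in any library. The sum of the list was 405 to 470 FPKM in WT and 190 to 293 FPKM in *Jmjd6*-/- libraries. The collagen gene *Col1a2* was lower in *Jmjd6*-/- under RANKL (log2 difference -0.80, adjusted p = 0.0350), a call lost without WT RANKL replicate 2 (0.0513) or *Jmjd6*-/- RANKL replicate 1 (0.322) or 2 (0.244). Over both conditions 3 genes were lower. Of these, *Col1a2* (adjusted p = 0.00538) passed without any single library, whereas the call of *Col1a1* (0.0144) was lost without either unstimulated library or *Jmjd6*-/- RANKL replicate 1 (0.0574 to 0.0862) and that of *Lum* (0.0103) without any of these or *Jmjd6*-/- RANKL replicate 2 (0.0515 to 0.0593). All 5 endothelial genes were below as well, and their sum was 22.1 FPKM in unstimulated WT, 10.4 and 11.6 FPKM in WT with RANKL, 7.15 FPKM in unstimulated *Jmjd6*-/-, and 3.74 and 3.23 FPKM in *Jmjd6*-/- with RANKL. By limma 3 were called lower in *Jmjd6*-/- under RANKL, *Pecam1*, *Cdh5* and *Tie1* (adjusted p = 0.0282 to 0.0466). Over both conditions 4 were, these and *Kdr* (0.00427 to 0.0201). All of these genotype calls were lost without a filter (0.0698 to 0.195). Those under RANKL were each lost without WT RANKL replicate 2 or either *Jmjd6*-/- RANKL library. Over both conditions, *Tie1* lost its call without either *Jmjd6*-/- RANKL library, and *Kdr* without any of these or either unstimulated library. *Pecam1* and *Cdh5* kept theirs over both conditions without any single library. With RANKL 4 of these 5 genes fell, but the calls of *Pecam1*, *Kdr* and *Tie1* were lost without either unstimulated library or either *Jmjd6*-/- RANKL library (0.0532 to 0.334) and that of *Cdh5* without the unstimulated WT library (0.0976). Of 10 mTEC genes, 8 rose with RANKL, beside 10.5% of all genes tested. By genotype 3 were below and 4 above, and the median genotype difference under RANKL was 0.03. *Krt14* and *Cldn4* were higher in *Jmjd6*-/- over both conditions, by 1.15 (adjusted p = 0.0170) and 0.90 (adjusted p = 0.0252), and both calls were lost without either unstimulated library or either *Jmjd6*-/- RANKL library (0.0755 to 0.135). Of 6 genes of nerve and Schwann cells, 2 were below and 0 above. The part of mesenchymal, endothelial or smooth muscle cells in the differences of the 10 muscle genes was not tested.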

How the data were processed

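Poly-A RNA of fetal thymic stroma kept under 2-DG had been sequenced in 6 libraries. The authors mapped paired-end reads to mm10 with TopHat2 2.0.10 and deposited FPKM values per gene, computed with Cufflinks 2.1.1 with correction for multi-mapped reads. A strand-specific library type was set, although the kit as described does not mark strand, so overlapping genes on opposite strands are uncertain. The labels' treatment field gives RANKL for every sample, and groups were taken from the titles and the stimulation field. The 10 genes and the other lists were chosen with earlier results of these data known.

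Values were used as deposited. Tests covered the 15894 of 22513 entries that averaged 0.1 FPKM or more, on log2(FPKM + 0.1) with limma 3.58.1 in R 4.3.3. The variance prior followed the mean, and p-values were adjusted over all genes tested by the Benjamini-Hochberg method. A mean for each of the 4 conditions gave genotype under RANKL and the interaction, and additive terms gave RANKL and genotype over both conditions. On simulated data with 200 genes changed by 3 on the log2 scale, tested on 15894 genes, 183 were recovered for RANKL and 159 for genotype under RANKL. The changed genes were drawn from all levels past the filter, with normally distributed noise. These numbers therefore do not give the recovery for smaller changes or for genes as low as most of the 10. Fragments were estimated from the FPKM of single fragments, by length for *Mylpf*. Estimates of 9 genes departed from whole numbers by up to 0.46 fragments. Folds against 0 used 3 fragments per library. Intervals are exact Clopper-Pearson at 95%. Named were the 10 genes, called genes and up to 3 of the most abundant others of each muscle and receptor list, and the 5 genes most like *Chrna1*. Alternatives were another added constant, filter, trend, scaling, replicate block, and each library left out. Chosen after seeing the data were a fit without entries at 0 in all libraries in place of the filter and the order of the 10 genes' libraries under scaling and leaving out libraries. Some genes of the lists are not reported here by name.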

Additional observations from a re-analysis of the deposited data

Results flagged for a closer look

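The RANKL libraries of the 2 genotypes lay on opposite sides of their unstimulated libraries for 4 of the 10 genes. The difference in response, *Jmjd6*-/- minus WT, was -1.43 for *Chrna1*, -1.53 for *Des*, -0.90 for *Mylpf* and -1.14 for *Myh3* on the log2 scale. By limma the adjusted p of the interaction was 1 for *Chrna1*, *Des* and *Mylpf*. For *Myh3*, which was below the filter, the difference was not tested. In *Myh3* the *Jmjd6*-/- libraries of both conditions held 1 fragment each, so its move within *Jmjd6*-/- is below what these libraries resolve. For *Chrna1*, *Des* and *Mylpf* the only unstimulated *Jmjd6*-/- library held an estimated 7, 6 and 29 fragments. Their falls within *Jmjd6*-/- are not resolved either.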

How the results depend on the processing

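The order of both *Jmjd6*-/- below both WT RANKL libraries held for 8 of the 10 genes under both scalings and for 8 to 9 with a RANKL library left out. Of the single values of the 6 tested genes in 3 comparisons (RANKL, and genotype under RANKL and over both conditions) under all alternatives, 235 kept direction and side of the threshold, 9 newly passed it and 5 changed sign. With single libraries left out, the RANKL effect ran from -0.40 to 1.02 for *Chrna1*, -0.23 to 0.67 for *Mylpf* (both lowest without the unstimulated WT library) and -0.93 to 0.59 for *Des* (above 0 without the unstimulated *Jmjd6*-/- library or *Jmjd6*-/- RANKL replicate 1), and it was 0.038 for *Des* with 1 FPKM added. The cause was not tested, but each unstimulated group is 1 library. Under RANKL 1 of the 10 genes passed without the trend (*Actc1*) and 0 to 2 with a library left out, and over both conditions 1 passed (*Actc1*) without the trend and 1 when only entries at 0 in all libraries were left out in place of the filter. Same-numbered RANKL libraries did not deviate together (r = -0.08 over 12587 genes), so the numbers are not taken to pair them. With the replicate number as a block, 4 of the 10 genes passed under RANKL (*Des*, *Ckm*, *Actc1*, *Acta1*), with 396 genes higher and 1081 lower over the whole table, and 27 and 67 for the interaction.

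Without a filter, counts over all genes were 788 rising and 299 falling with RANKL, 1 higher and 1 lower under RANKL in *Jmjd6*-/-, 1 and 3 over both conditions, and 93 and 83 for the interaction. Leaving out only entries at 0 in all libraries gave 0 and 0 under RANKL. Other moves were 398 falling with RANKL without the trend, and 180 lower in *Jmjd6*-/- under RANKL with 0.01 FPKM added and 172 with a filter at 1 FPKM. With single libraries left out, 623 to 2165 genes rose and 54 to 1478 fell with RANKL, 20 to 2254 were higher and 68 to 1737 lower in *Jmjd6*-/- under RANKL, 30 to 707 and 59 to 809 over both conditions, and 0 to 4 and 0 to 1 for the interaction. Of the wider calls named, those of *Tnni2*, *Pgam2*, *Agrn*, *Colq*, *Chrna4*, *Chrna9*, *Chrnb4*, *Acta2*, *Tagln* and *Tnni3* were lost without a filter (adjusted p = 0.0558 to 0.199 by limma). So were those of *Col1a1*, *Col1a2* and *Lum*, those of *Krt14* and *Cldn4* over both conditions, and the falls of *Pecam1*, *Kdr* and *Tie1* with RANKL (0.0682 to 0.158). The genotype calls of the endothelial genes were lost as well (0.0698 to 0.195). Those of *Tnni2*, *Mybpc1* and *Chrnb4* were lost with 1 FPKM added (0.0537 to 0.0981). With 0.01 FPKM added, those of *Chrna4* (0.0656) and, under RANKL, *Tagln* (0.0512) were lost, and for *Tie1* the fall with RANKL (0.0539) and the genotype call under RANKL (0.0613). Without the trend, those of *Tnni2*, *Acta2*, *Cldn4* over both conditions, and *Tagln* and *Col1a2* under RANKL were lost (0.0588 to 0.0684). The falls of *Kdr* and *Tie1* with RANKL were lost with the replicate block (0.0502 and 0.0604). Scaling moved no library's level by more than 0.09 on the log2 scale. Depth limits most of the 10 genes, since their values are 0 to 26 fragments per library apart from *Mylpf*.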
